A study of Mus musculus with 2 samples.

Results

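The nuclear genes of oxidative phosphorylation were followed in the SCN (suprachiasmatic nucleus), the seat of the circadian pacemaker in the hypothalamus, after mice had lived under a short (ST) or a normal (NT) T-cycle. A T-cycle is an imposed alternation of light and darkness. Members were chosen by gene name, as rows that begin with Nduf plus a subunit letter and number, Sdha to Sdhd, Uqcr, Cyc1, Cox4 to Cox8 or Atp5. The rule took 85 of the 24229 genes in the deposited table, of which 37 fell to complex I, 4 to complex II, 9 to complex III, 18 to complex IV and 17 to complex V. In total, 16 wild-type C57BL/6 mice of postnatal day 68 were divided equally between the schedules, and all of them had spent 7 days in darkness beforehand. SCN tissue was taken at circadian time 4 h after a further 5 days in darkness. ST and NT differed only in the schedule, as far as the labels say, and each was represented by 1 library of polyadenylated RNA. The schedules lasted 4 weeks, tissue was cut from slices of 250 µm, and 500 ng of RNA from a kit for nuclear or cytoplasmic RNA entered library preparation. The sources used here do not give the number of mice behind a library, the RNA fraction or the periods of the schedules. Both libraries held the SCN peptides vasopressin and VIP, with 656 and 168 RPKM in ST, against 563 and 197 RPKM in NT, and the SCN transcription factor Six6 with 19.8 RPKM in ST and 20.9 RPKM in NT. RPKM is a read count scaled to the length of the gene model and to the library's total.

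Oxidative phosphorylation takes electrons from NADH through complex I, or from succinate through complex II, to ubiquinone. They pass on through complex III, cytochrome c and complex IV to oxygen, and complex V, the ATP synthase, uses the proton gradient built on the way to make ATP. Complexes I, III, IV and V mix subunits made from the mitochondrial genome with the nuclear ones described here, while complex II is entirely nuclear. Firing neurons draw on this pathway to restore their ion gradients.

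The rule was checked against the roles of the genes it found. Cox4nb is named only as the neighbour of Cox4i1 and encodes a subunit of the ER membrane protein complex. Atp5s and Atp5sl are not structural subunits of the ATP synthase, and Cox7a2l takes part in joining complexes III and IV. Ndufa4 carries a complex I name but is now placed in complex IV. The rule also misses Ndufab1, the acyl carrier protein of complex I, which was counted with the assembly genes. All 85 Ensembl identifiers were found as protein-coding genes in GENCODE vM1 of NCBIM37, the build also called mm9, at overlapping positions on 19 chromosomes.

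Promoter windows of 300 bases, 250 before and 50 after the start in RefSeq on GRCm38.p6, were matched for 69 of 85 members and gave 75 windows. NRF1, whose name here means nuclear respiratory factor 1, and ETS-family factors are known regulators of respiratory genes, so their letters were looked for on both strands. The NRF1 letters searched were GCGCA followed by any base and then GCGC, and 18 of 75 member windows held them (24%), against 4.603% of all 32851 windows and 9.38% of the 11636 windows of genes measured here. An ETS core, CCGGAAG or its reverse complement, was in 16 member windows (21.3%), against 8.86% of all windows and 15.5% of those of measured genes. One or the other was found in 30 member windows (40.0%), against 12.6% and 23.0%. A GC box, GGGCGG or its reverse complement, was in 38.7% of member windows, against 35.7% of all and 62.3% of measured-gene windows, and CCAAT or its reverse complement in 42.7%, against 37.4% and 37.1%. Median GC content was 57.3% in member windows and 61.0% in those of measured genes. The NRF1 letters were in 8 of 34 windows for complex I, 2 of 3 for II and 1 of 5 for III. For complex IV they were in 1 of 13 windows (7.69%), and for V in 6 of 20. The ETS core was in 4 of 34 windows for complex I (11.8%), 2 of 3 for II and 2 of 5 for III. For complexes IV and V it was in 3 of 13 and 5 of 20. The windows below are those of the most abundant member of each complex whose window held the NRF1 letters. They show how these matches lie in the promoters of genes that are spread over different chromosomes, with NRF1 and ETS matches in capitals and everything else in lower case.
Ndufa6, chr15:82354242-82354541, minus strand: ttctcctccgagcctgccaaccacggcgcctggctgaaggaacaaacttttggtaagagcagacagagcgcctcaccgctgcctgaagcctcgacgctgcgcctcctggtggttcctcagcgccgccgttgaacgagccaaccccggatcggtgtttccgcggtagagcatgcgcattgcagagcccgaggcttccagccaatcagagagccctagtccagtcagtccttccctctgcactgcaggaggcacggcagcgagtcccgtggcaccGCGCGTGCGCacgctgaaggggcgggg
Sdha, chr13:74350191-74350490, minus strand: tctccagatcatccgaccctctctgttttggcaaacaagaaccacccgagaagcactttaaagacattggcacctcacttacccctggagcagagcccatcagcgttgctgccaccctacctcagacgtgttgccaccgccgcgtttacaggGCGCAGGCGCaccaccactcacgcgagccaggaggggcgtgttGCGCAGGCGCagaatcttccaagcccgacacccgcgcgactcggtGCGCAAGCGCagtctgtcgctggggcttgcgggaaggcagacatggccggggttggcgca
Uqcrc1, chr9:108936398-108936697, plus strand: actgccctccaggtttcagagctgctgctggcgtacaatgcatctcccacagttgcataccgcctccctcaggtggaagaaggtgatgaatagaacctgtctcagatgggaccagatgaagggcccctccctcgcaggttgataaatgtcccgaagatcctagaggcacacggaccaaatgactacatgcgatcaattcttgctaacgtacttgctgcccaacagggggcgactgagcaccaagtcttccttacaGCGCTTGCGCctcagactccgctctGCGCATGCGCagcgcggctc
Cox6a1, chr5:115348909-115349208, minus strand: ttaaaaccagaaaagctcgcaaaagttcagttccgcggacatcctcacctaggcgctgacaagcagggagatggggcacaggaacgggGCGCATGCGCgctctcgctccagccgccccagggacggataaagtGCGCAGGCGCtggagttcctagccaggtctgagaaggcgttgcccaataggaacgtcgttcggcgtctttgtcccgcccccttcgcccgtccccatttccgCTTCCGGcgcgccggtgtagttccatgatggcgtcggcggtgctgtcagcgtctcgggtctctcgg
Atp5g3, chr2:73911277-73911576, minus strand: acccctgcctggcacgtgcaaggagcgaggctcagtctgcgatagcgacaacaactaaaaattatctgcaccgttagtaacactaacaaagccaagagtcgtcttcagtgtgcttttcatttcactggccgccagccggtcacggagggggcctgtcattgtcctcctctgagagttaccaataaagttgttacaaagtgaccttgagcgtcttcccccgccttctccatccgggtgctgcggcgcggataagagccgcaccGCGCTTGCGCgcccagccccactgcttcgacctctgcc

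The Sdha window held NRF1 matches at 3 places, and the Uqcrc1 window at 2, both close to the start. That of Cox6a1 held 2 such places and an ETS core. A match of letters is not a measured binding site. Members with the NRF1 letters had a median log2 ratio of ST to NT of 0.03 (17 genes), against 0.06 for matched members without them (48 genes), which is a description with no test.

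Members were among the more abundant transcripts of the tissue. The median RPKM of the 79 measured members was 57.4 in ST and 55.2 in NT, against 9.26 in ST and 9.16 in NT over all 14343 measured genes. A gene was counted as measured when its normalised counts averaged 50 or more over both libraries. Of all 85 members, 56 lay above the 90th percentile of the table by RPKM, and 18 had at least 100 RPKM in both libraries. Together the members made up 0.808% of the ST library's counts and 0.779% of those of the NT library.

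**Figure D1:**
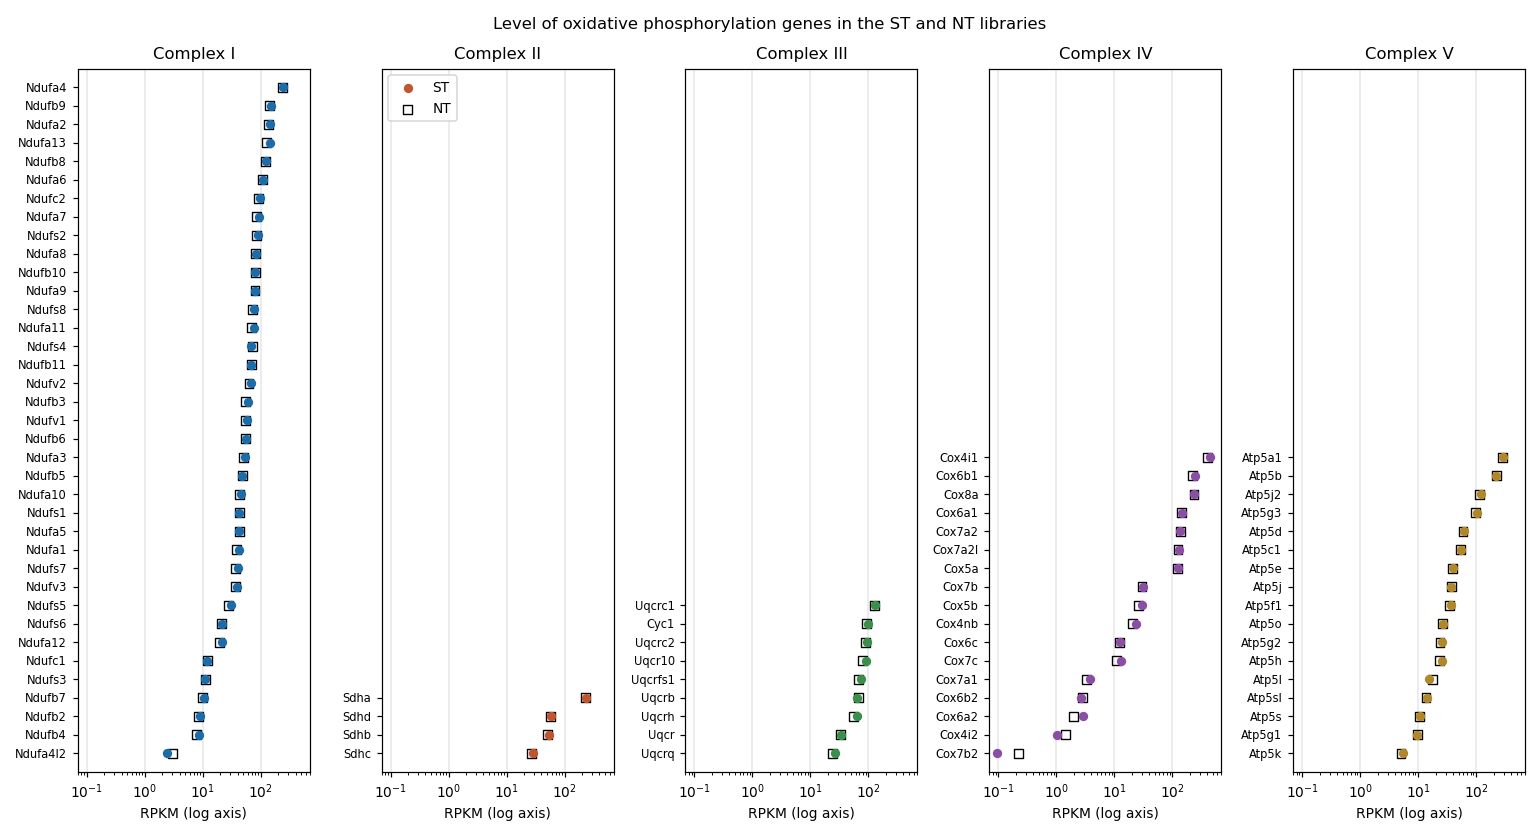
RPKM of each member in the ST library (filled circles, in the colour of the complex) and the NT library (open squares), on a log axis with 1 panel per complex, genes ordered by mean level. Cox8b is left out because it is listed at 0 in NT. From Cox4i1 at 441 RPKM in ST and 409 RPKM in NT down to Atp5k at 5.53 and 5.07, circles and squares lie close together. Among the isoforms of complex IV at the bottom, Cox6a2, Cox4i2 and Cox7b2 (0.0953 RPKM in ST, 0.225 in NT, from 1 and 3 reads) stand visibly apart.

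Among genes with a complex I name, the most abundant transcript by RPKM was Ndufa4, with 240.2 RPKM in ST and 237 RPKM in NT. As said above, Ndufa4 is now placed in complex IV, and Ndufb9 came next with 149.5 RPKM in ST and 143.0 RPKM in NT. Sdha, the flavoprotein of complex II that oxidises succinate, had 231 RPKM in ST and 229.6 RPKM in NT, while its partners were lower. Those were the iron-sulfur protein Sdhb (54.3 RPKM in ST, 50.9 in NT) and the membrane anchors Sdhc (28.3 and 27.2) and Sdhd (57.4 and 56.4). Uqcrc1, a core protein of complex III, had 132 RPKM in ST and 128 RPKM in NT. In complex IV Cox4i1, the general form of the largest nuclear subunit, was highest. The catalytic head of the ATP synthase, built from alternating alpha and beta chains, was represented by Atp5a1 with 295 RPKM in ST and 281 RPKM in NT, and Atp5b with 223 and 222.5. Median levels by complex were 59.0 RPKM in ST and 55.2 RPKM in NT for complex I, 55.8 and 53.6 for II, 75.1 and 68.7 for III, 129 and 125 for IV, and 37.2 and 35.2 for V. The order of these medians rests on the gene models. Levels may also depend on how reads that fit several places were assigned, which the sources used here do not give. The deposited gene model was more than 2 times as long as the longest annotated transcript for 12 members, 7 of them in complex V. Ndufb7, for example, had a model of 4520 bases against a transcript of 623, which turns 10.8 RPKM in ST and 10.04 in NT into 78.0 and 72.8 on the same scale per kilobase of transcript. Per kilobase of the longest transcript the medians were 56.3 in ST and 54.8 in NT for complex I, 80.7 and 76.9 for II, 97.2 and 91.1 for III, 96.7 and 95.6 for IV, and 60.8 and 59.2 for V.

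Which form of a subunit the tissue used was the same in both libraries. Mammals carry alternative forms of several complex IV subunits that are known from muscle, testis or lung. Cox4i2 made up 0.238% of the Cox4i family's RPKM in ST and 0.352% in NT. Likewise Cox6a2, the heart and skeletal muscle form, held 1.93% and 1.37% of its family, Cox6b2, a testis form, 1.09% and 1.22%, and Cox7a1, another muscle form, 1.42% and 1.27%. Cox7b2 had 1 read in ST and 3 in NT, and Cox8b had 2 and 0. Ndufa4l2 had 0.992% of the Ndufa4 family's RPKM in ST and 1.25% in NT. The ATP synthase c subunit, which forms the rotating ring in the membrane, is made from a trio of genes with the same mature protein. By RPKM, Atp5g3 was the most abundant (102 in ST, 97.7 in NT), followed by Atp5g2 (26.3 and 23.8) and Atp5g1 (9.58 and 9.66). Per kilobase of transcript the same order held, at 307 in ST and 294 in NT for Atp5g3 and 9.96 and 10.05 for Atp5g1. Cox7a2 and Cox7a2l had 136.1 and 130.4 RPKM in ST, against 136.5 and 125 RPKM in NT. Per kilobase of transcript their order turned round, at 79.9 and 120.7 in ST, against 80.2 and 116.1 in NT.

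**Figure D2:**
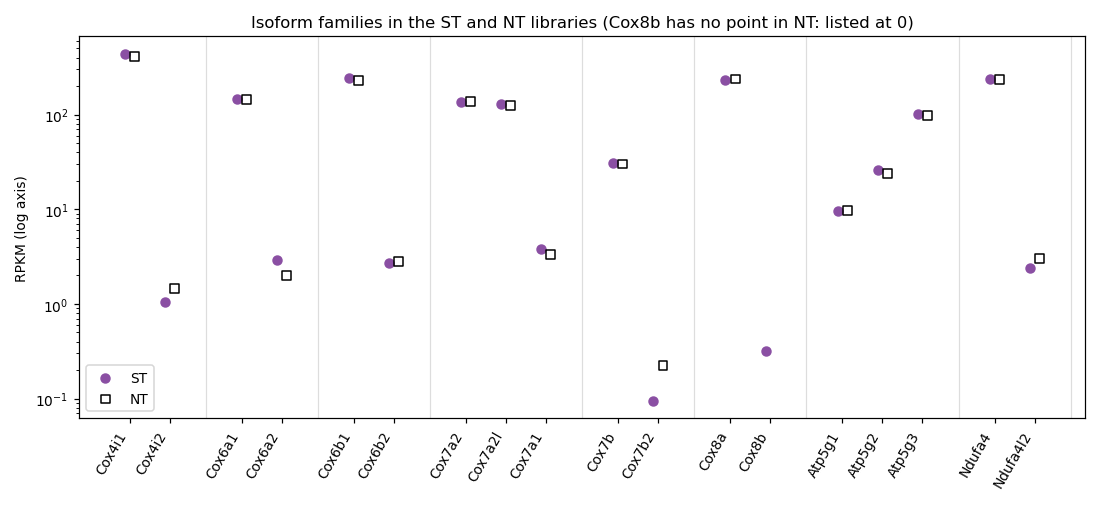
RPKM of the members of 8 isoform families in the ST (filled circles) and NT (open squares) libraries, on a log axis. In the Cox4, Cox6, Cox8 and Ndufa4 families 1 form stands far above the other, and Atp5g3 stands above Atp5g2 and Atp5g1, in both libraries.

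The ratio of ST to NT was close to 1 for nearly all members. Library sizes were evened out by median-of-ratios factors, and the intervals given are exact 95% Clopper-Pearson intervals that cover counting error only. With a single library per schedule there is no biological error and no test, so each ratio compares these libraries. Over the 79 measured members the median log2 ratio was 0.05, with quartiles of 0.00 and 0.11, against -0.00 over all measured genes, with quartiles of -0.08 and 0.07. Positive log2 ratios were found for 59 members and negative ones for 20, that is 74.7% positive, against 49.2% of all measured genes. Within 1.2-fold lay 78 of 79 members (98.7%), against 90.5% of all measured genes and 98.7% of those averaging 1000 or more normalised counts. None was 1.2-fold higher (background 3.37%) and 1 was 1.2-fold lower (background 6.13%). At 1.1-fold, 9 members were higher (11.4%, background 11.5%) and 3 lower (3.80%, background 15.4%).

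An interval wholly above 1 was found for 14 of 79 members (17.7%), against 7.81% of all measured genes, and an interval wholly below 1 for 0 members, against 10.2%. With scaling by total counts, which added 0.01 to every log2 ratio, 24 members had an interval above 1 (30.4%), against 9.91% of all measured genes under that scaling. Since intervals narrow with depth, the same was counted for genes that averaged 1000 or more normalised counts. Of 52 such members 12 had an interval above 1 (23.1%), where 12.8% of the 5172 genes did, and 0 an interval below 1, where 14.1% did. Among them 3 were 1.1-fold higher (background 3.58%) and 0 were 1.1-fold lower (background 5.38%). All 52 lay within 1.2-fold, as did 98.7% of the 5172 genes. The 14 members lay between 1.04-fold and 1.16-fold higher in ST, and 11 of them shared no reads with another feature. The authors' deposited table gives every one of the 85 members an adjusted p of 1, and the smallest unadjusted p among them, that of Ndufa13, was 0.118. Of all 24229 genes in the authors' deposited table, 49 (0.202%) had an adjusted p under 0.05.

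**Figure D3:**
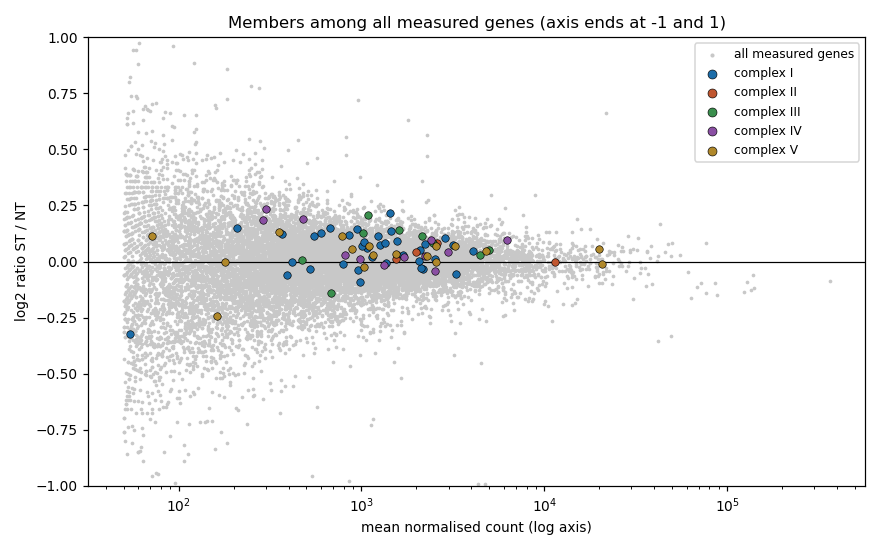
Mean normalised count (log axis) against the log2 ratio of ST to NT for all measured genes (grey) and the measured members (coloured by complex). The vertical axis ends at -1 and 1, beyond which 36 genes and no member lie. Members form a narrow band just above 0, and the lowest point, Ndufa4l2, sits at the left edge where counts are few.

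Complex I had a median log2 ratio of 0.06 over 37 measured members, with 26 positive. Its 7 catalytic core subunits, which carry the flavin and the iron-sulfur clusters, had a median of 0.07, and the 28 accessory subunits had 0.06. Ndufa13, an accessory subunit also known as GRIM-19 for a part in cell death, had 1531 normalised counts in ST and 1320.01 in NT (log2 ratio 0.21, a fold of 1.16 with an interval of 1.08 to 1.25). This was the highest ratio of complex I, and the gene lies on chromosome 8 from 72418087 to 72425547 in mm9. Among the core subunits with an interval above 1, Ndufs7, which holds the last iron-sulfur cluster before ubiquinone, had 1527 normalised counts in ST and 1389 in NT (1.099-fold, 1.02 to 1.18). Ndufv2, of the NADH-oxidising end, had 2964 in ST and 2757 in NT (1.08-fold, 1.02 to 1.13), and its partner Ndufv1, which binds NADH, 3245 and 3082 (1.05-fold, 1.002 to 1.11). The accessory subunit Ndufa7 had 991 in ST and 896 in NT (1.11-fold, 1.01 to 1.21). On the lower side, Ndufs4, an accessory subunit whose loss causes a Leigh-like disease in mice, had 957 normalised counts in ST and 1018 in NT (0.940-fold, 0.859 to 1.03). Ndufs1, the largest core subunit, had 3231 and 3355 (0.963-fold, 0.917 to 1.01). Both of these intervals held 1.

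Ndufa4l2 was the only measured member beyond 1.2-fold. This paralogue of Ndufa4 is known as a hypoxia-induced gene, and both it and Cox4i2 are described in brain mainly in pericytes, the mural cells of capillaries. The libraries held 43 reads of Ndufa4l2 for ST and 68 for NT, or 48.3 and 60.5 normalised counts (0.798-fold, 0.532 to 1.19). For Cox4i2, below the count filter, they held 16 for ST and 28 for NT (0.721-fold, 0.365 to 1.38). Both intervals held 1. All 10 markers of endothelial and mural cells were also lower in ST, 9 of them with an interval below 1 (background 10.2%). Their summed level was 276 RPM (counts scaled to the library's total) in ST and 346 RPM in NT, none was at 0, and their median log2 ratio was -0.32. Most of this list is endothelial, and its mural markers Rgs5 and Pdgfrb were at -0.32 and -0.41. Markers of oligodendrocytes and microglia were lower in ST as well, as given below. The part of endothelial and mural cells in the ratios of Ndufa4l2 and Cox4i2 was not tested. In whole tissue, fewer cells of a type and less RNA per cell cannot be told apart.

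Complex II had the flattest values. Sdha had 11465 normalised counts in ST and 11473 in NT (0.999-fold, 0.974 to 1.03), and Sdhd had 1561 and 1547 (1.01-fold, 0.939 to 1.08). Sdhc stood at 2008 in ST and 1950.2 in NT (1.03-fold, 0.967 to 1.096) and Sdhb at 2650.3 and 2505 (1.06-fold, 1.001 to 1.12). Only the interval of Sdhb lay above 1, by a narrow margin. No complex II gene shared reads with another feature.

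Complex III had the highest median of all complexes, 0.08 over 9 members, and 8 of them were positive. By means, complex IV stood first with 0.073, against 0.069 for complex III. That mean counts Cox4nb and Cox7a2l, and over the 10 general complex IV subunits it was 0.064, below complex III. Uqcr10, a small membrane subunit, had 1169.5 normalised counts in ST and 1013 in NT (1.15-fold, 1.06 to 1.26). Uqcrh, the hinge protein that helps cytochrome c bind to cytochrome c1, had 1689 and 1531 (1.103-fold, 1.03 to 1.18). Uqcrfs1, the Rieske iron-sulfur protein, had 2237 in ST and 2064 in NT (1.08-fold, 1.02 to 1.15), and Cyc1, cytochrome c1 itself, had 2540.2 and 2399.7 (1.06-fold, 1.001 to 1.12). Intervals of these 4 lay above 1. The core proteins Uqcrc1 (1.02-fold, 0.978 to 1.06) and Uqcrc2 (1.04-fold, 0.997 to 1.08) had intervals that held 1. Uqcrb, the ubiquinone-binding protein, went the other way with 652 normalised counts in ST and 717 in NT (0.908-fold, 0.815 to 1.01). Uqcrb shares reads, and among the 4 members of complex III that do not, the median was 0.12.

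**Figure D4:**
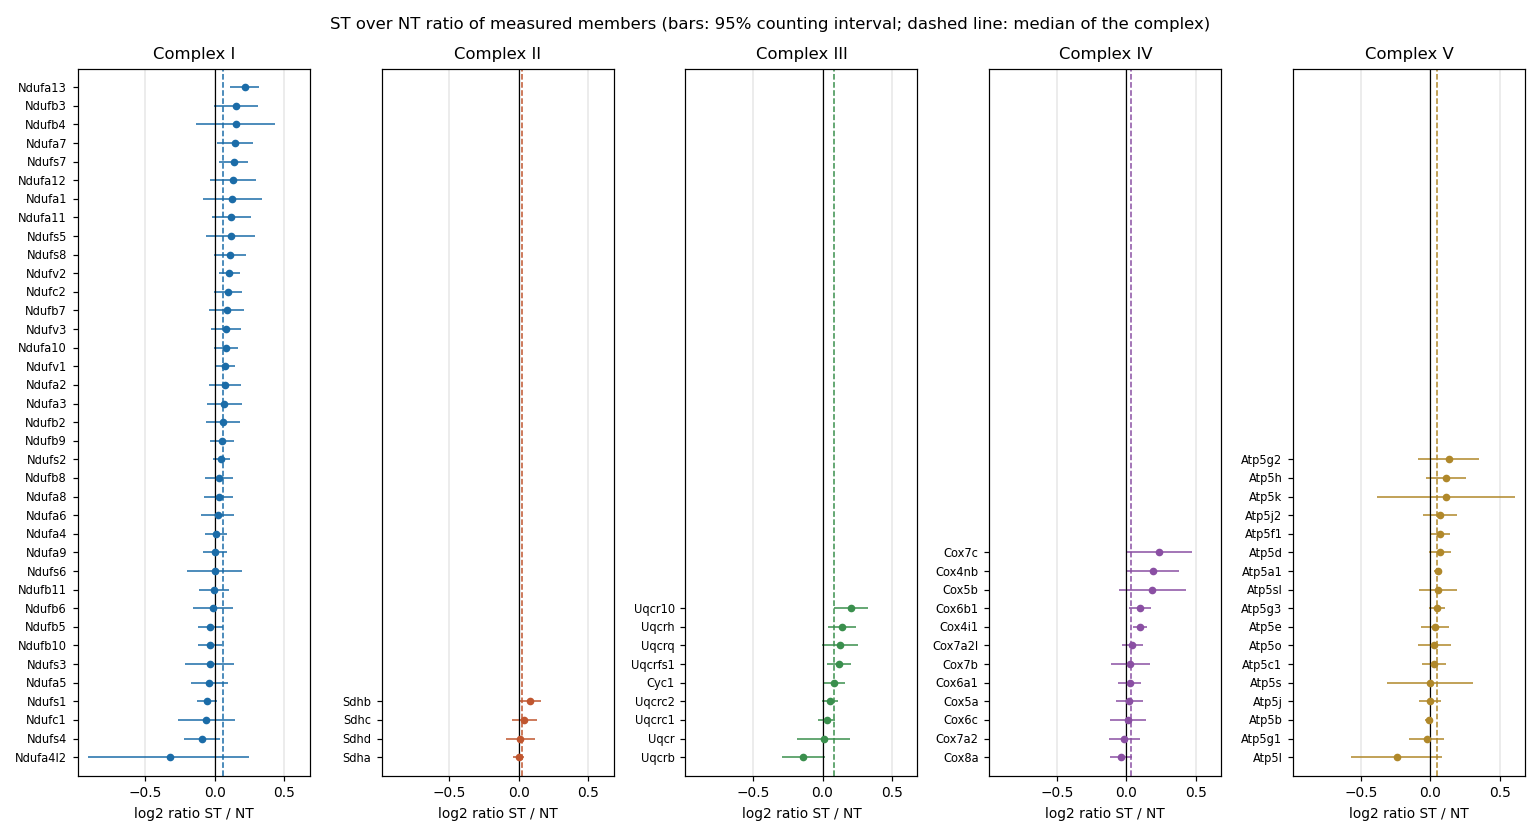
Log2 ratio of ST to NT for the 79 measured members, 1 panel per complex, with 95% counting intervals as bars and the median of each complex as a dashed line. Medians lie between 0.03 and 0.08, and most bars cross or touch 0.

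Complex IV had a median of 0.04 over 12 measured members, of which 10 were positive. Cox4i1 had 6478 normalised counts in ST and 6058 in NT (1.07-fold, 1.03 to 1.11), and Cox6b1, a subunit on the intermembrane side, had 2496 and 2334 (1.07-fold, 1.01 to 1.13). Cox7c, a small membrane subunit that shares reads, gave the highest log2 ratio of all measured members, 0.23, but with 324 normalised counts in ST and 275 in NT its interval was 0.998 to 1.39. Cox8a was lowest, with 2483 in ST and 2555 in NT (0.972-fold, 0.919 to 1.03). Cox4nb, the gene that only shares the name, had 512 normalised counts in ST and 449 in NT (1.14-fold, 1.004 to 1.30). It lies on chromosome 8 from 123181733 to 123191987, on the strand opposite to Cox4i1, which starts 202 bases further on at 123192190 and ends at 123198107 in mm9. Of the 6 members of complex IV under the count filter, Cox6a2 had 24 reads in ST and 21 in NT (1.44-fold, 0.769 to 2.72). Cox6b2 had 25 and 33 counts (0.956-fold, 0.545 to 1.66), and Cox7a1 had 27 and 30 (1.14-fold, 0.650 to 1.98). At this depth no difference was detectable for these isoforms.

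Complex V had a median of 0.05 over 17 members, with 12 positive. Atp5a1 had 20236 normalised counts in ST and 19470.0 in NT (1.04-fold, 1.02 to 1.06), the only interval of this complex above 1. Its partner Atp5b, with 20600 in ST and 20758 in NT, had a ratio of 0.992 (0.973 to 1.01), and these intervals did not overlap, although both chains enter the enzyme in equal number. Atp5b shares reads and Atp5a1 does not. The highest ratio was that of the c-subunit gene Atp5g2 (370 in ST, 337 in NT, 1.096-fold, 0.942 to 1.27), beside 1.03-fold for Atp5g3 (0.993 to 1.08) and 0.983-fold for Atp5g1 (0.900 to 1.07). The lowest was Atp5l, the g subunit at the place where ATP synthases pair, with 148 normalised counts in ST and 175 in NT (0.846-fold, 0.673 to 1.06). Atp5k, the e subunit at the same place, had 74.1 and 68.5 (1.08-fold, 0.767 to 1.52). The central stalk and head subunits had a median of 0.03 over 5 genes and the peripheral stalk and membrane subunits 0.06 over 10.

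Whether the ratios of the complexes differ was not tested. Their ranges of log2 ratios overlapped throughout, from -0.32 to 0.21 in complex I, -0.00 to 0.08 in II, -0.14 to 0.21 in III, -0.04 to 0.23 in IV and -0.24 to 0.13 in V. The lower end of complex I was Ndufa4l2, and the next lowest there was Ndufs4 at -0.09. Summed counts, where abundant genes weigh more, gave 1.03-fold for complex I (1.02 to 1.05), 1.01-fold for II (0.991 to 1.03), 1.05-fold for III (1.03 to 1.07), 1.04-fold for IV (1.02 to 1.06) and 1.02-fold for V (1.01 to 1.03). Neighbours in this order overlapped in their intervals, which does not show that their ratios are equal. The interval of complex II alone held 1. Over all members the sum was 176749 normalised counts in ST and 171851 in NT, 1.03-fold (1.02 to 1.04). The intervals of 69 of the 79 measured members (87.3%) held this common ratio, which is made from the same counts. Those above it were Ndufa13, Uqcr10, Uqcrh and Cox4i1, and those below it were Ndufs4, Ndufs1, Sdha, Uqcrb, Cox8a and Atp5b. A ratio of 1 was held by the intervals of 65 of the 79 members, and of 40 of the 52 averaging 1000 or more normalised counts. Over all measured genes, 82.0% of intervals held a ratio of 1, and 73.2% did among genes averaging 1000 or more normalised counts. The 87.3% is for a different ratio and is not comparable with these shares.

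Gene models of members were short, with a median of 1167 bases against 3285 for all measured genes. Measured genes under 1000 bases had a median log2 ratio of 0.03 (1449 genes) and longer ones -0.01 (12894 genes). For members the medians were 0.06 under 1000 bases (36 genes) and 0.05 above (43 genes). Across genes, which are not independent replicates, Spearman's rho between length and log2 ratio was -0.07 over all measured genes and -0.12 over measured members. The part of length in the members' median was not tested. Members share reads about as often as other genes, 31 of 79 (39.2%) against 42.5%.

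The mitochondrially encoded partners of these subunits had ratios on the other side of 1. All 13 of these mitochondrial genes share reads with another feature, against 42.5% of all measured genes. For complex I, 7 mitochondrial genes lay between -0.16 and -0.07 on the log2 scale, and 35 of the 37 nuclear members (94.6%) lay above all of them, against 72.3% of all 14343 measured genes. The value for mt-Cytb in complex III was -0.13, with 8 of 9 nuclear members above it (88.9%, against 83.2% of all measured genes). The complex IV genes mt-Co1 to mt-Co3 lay between -0.12 and -0.06, with all 12 measured nuclear members above them, against 68.6% of all measured genes. For complex V the range was -0.17 to -0.09, with 16 of 17 nuclear members above it (94.1%, against 76.8%). Mitochondrial transcripts carry short poly-A tails and were much more abundant, at 7871 to 10476 RPKM in ST and 8460 to 11024 RPKM in NT for the 3 mt-Co genes.

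Other parts of the pathway were taken from lists of known function. For the counts of intervals in these lists, the background over all measured genes was 7.81% above 1 and 10.2% below 1. Among genes averaging 1000 or more normalised counts it was 12.8% above 1 and 14.1% below 1. Of 9 measured genes for complex I assembly, 7 were higher and 2 lower, with a median of 0.03, and 0 had an interval clear of 1. The furthest from 0 was the assembly factor Ndufaf1 at -0.20 (fold interval 0.738 to 1.02). The 17 measured genes for assembly of the other complexes had a median of -0.00, with 8 higher and 9 lower and 0 intervals clear of 1. Sdhaf1, which helps insert iron-sulfur clusters into Sdhb, was at -0.25 (0.661 to 1.07). Cytochrome c, ubiquinone synthesis and electron transfer flavoprotein genes had a median of 0.02 over 13, with 1 interval below 1, that of the ubiquinone enzyme Coq2 at -0.16 (0.820 to 0.980). The citrate cycle with pyruvate dehydrogenase, which supplies NADH and succinate, was even (median 0.00, 9 of 18 higher). It had 2 intervals below 1, those of the succinyl-CoA ligase subunit Suclg2 at -0.22 (0.737 to 0.998) and citrate synthase, Cs, at -0.09 (0.905 to 0.980).

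Genes that export or guard ATP had a median of 0.02 over 8, with 3 intervals above 1 (background 7.81%). These were Vdac3, a pore of the outer membrane, at 0.13 (1.03 to 1.17), Atpif1, the inhibitor of the ATP synthase, at 0.12 (1.01 to 1.17), and the mitochondrial creatine kinase Ckmt1 at 0.11 (1.03 to 1.12). Of 14 regulators of mitochondrial biogenesis, 8 were higher and 6 lower, with a median of 0.04. Pprc1, a PGC-1-related coactivator, stood at 0.20 (1.03 to 1.27) and the transcription factor Yy1 at -0.16 (0.819 to 0.979). The 11 uncoupling and antioxidant genes had a median of 0.04, with 2 intervals above 1, those of Slc25a27 at 0.13 and the glutathione peroxidase Gpx1 at 0.12. Glycolytic genes, a separate route to ATP, had a median of 0.02 with 13 of 16 higher, 4 intervals above 1 and 1 below. Among them were the phosphofructokinase Pfkl at 0.09 (1.01 to 1.11) and the triose-phosphate isomerase Tpi1 at -0.06 (0.931 to 0.993).

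**Figure D5:**
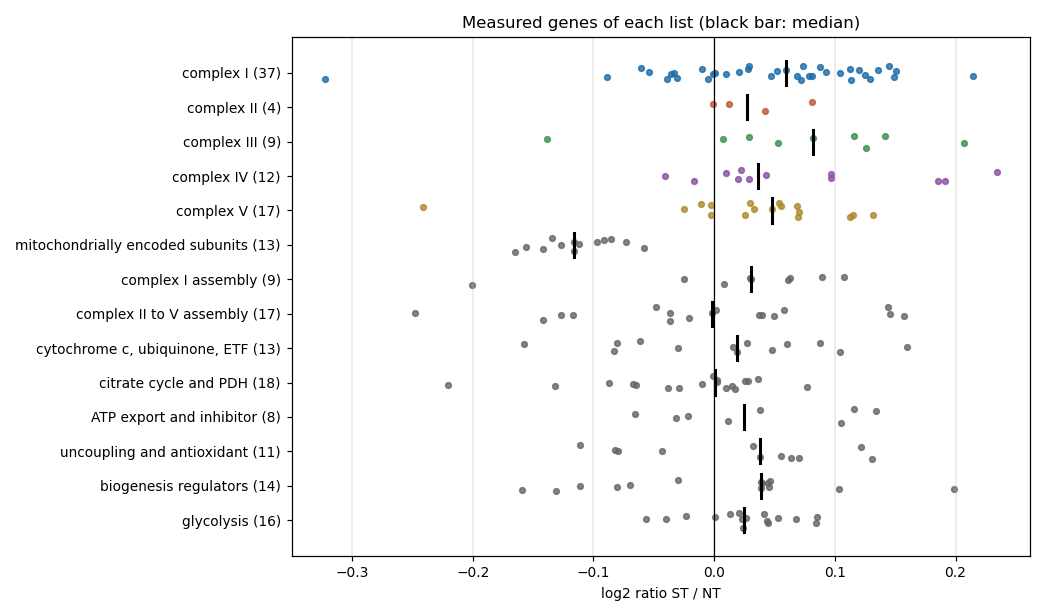
Log2 ratio of ST to NT for each measured gene of complexes I to V (coloured) and of related lists (grey), with the number of genes in brackets and the median as a black bar. The median of every complex lies right of 0, and that of the mitochondrially encoded subunits lies at -0.12. The lists of assembly, citrate cycle and glycolysis genes have medians from -0.00 to 0.03. Biogenesis regulators (0.039) and uncoupling and antioxidant genes (0.038) have medians above those of complex II (0.027) and complex IV (0.036).

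Markers of other cell types also differed between these libraries. Oligodendrocyte markers were lower in ST in 12 of 12 cases, with summed levels of 4999.7 RPM in ST and 6171 RPM in NT. Microglial markers were lower in 10 of 10 cases (235 in ST, 270.2 in NT). Meningeal and collagen markers were lower in 8 of 8 measured cases, with sums over all 9 found of 70.9 in ST and 126 in NT. Astrocyte markers were lower in 6 of 9 (5598 in ST, 5691 in NT). Of 10 measured neuronal markers 5 were lower (4955 in ST, 4913 in NT), with a median log2 ratio of -0.01. None of the markers found in the table was at 0. Of the 10 SCN markers 7 were lower and 3 higher in ST (median log2 ratio -0.09). Their intervals lay below 1 for 3 (background 10.2%) and above 1 for 2 (background 7.81%). The summed levels of the SCN markers were 1303 RPM in ST and 1293 RPM in NT. The part of these shifts in the members' median of 0.05 was not tested.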

How the data were processed

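RNA of the SCN was sequenced in 1 library per schedule. The submitters' processing notes list mm9 as the build and, among tools, DESeq, TopHat 1.2 and CASAVA 1.8.2, without their roles. The read counter is not given in the sources used here. Per the file headers, the authors deposited estimated counts (RC), RPKM and RPM values, and their own comparison as a fold, its log2 and p-values with adjusted p-values. Another 3 columns, which hold means, were left aside. Estimated counts, which the authors deposited with fractions for 42.4% of genes in ST and 43.1% in NT, were rounded to whole numbers, and a gene with a fraction in either library (tolerance 1e-06) was said to share reads. The total count was 19476800 in ST and 24790727 in NT.

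Normalised counts are counts over a median-of-ratios factor, 0.89 in ST and 1.12 in NT. Log2 ratios used a pseudocount of 0.5, and folds used none. Genes averaging 50 or more normalised counts were called measured. Intervals are 95% Clopper-Pearson intervals of the binomial share that ST holds of a gene's reads, turned into a ratio with those factors. They cover counting error only and take reads as independent. Reads lacking molecular identifiers can be copies of 1 molecule, which the intervals do not allow for. Differences were described at 1.2-fold and 1.1-fold and by the interval. Named genes are those past 1.2-fold, the highest, lowest and most abundant member of each complex, all Sdh genes, the isoform families and members of low level. Others with an interval clear of 1 or of the common ratio, or with a role that aids reading, were named after their values had been seen. Genes outside the members came from lists of known function, mostly by the size of their log2 ratio. The ratio and interval calculations were tested on simulated data. Members and lists were chosen with earlier results of these data known. Python 3.11.15, scipy 1.17.1 and, for TMM factors, edgeR 4.0.16 in R 4.3.3 were used.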

Additional observations from a re-analysis of the deposited data

How the results depend on the processing

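No paired analysis was possible because a schedule has a single library, which also leaves no replicate to drop. Scaling by total counts added 0.01 to every log2 ratio, which moved the members' median to 0.064 (0.01 for all measured genes) and the number of intervals above 1 to 24 (30.4% of members, against 9.91% of all measured genes). TMM scaling and a pseudocount of 5 moved none of the medians or counts beyond these limits. The median of complex III was 0.12 over 7 genes with a filter of 1000 counts and 0.12 over 4 genes with whole counts only, by construction over fewer genes. Means in place of medians gave 0.073 for complex IV, which passed complex III at 0.069, and 0.031 for complex V. Over the 10 general complex IV subunits, without Cox4nb and Cox7a2l, the mean was 0.064 and did not pass complex III. Without its most abundant member the log2 ratio of summed counts was 0.051 for complex II and 0.049 for complex V, against 0.02 and 0.03 with Sdha and Atp5b. With a filter of 10 counts, 1 member was 1.2-fold higher (Cox6a2) and 2 were 1.2-fold lower (Cox4i2 and Ndufa4l2). The number 1.2-fold lower was 0 with filters of 200 and 1000, 0 without isoforms and non-subunits, with Cox4nb kept or also left out, and 0 at 1.5-fold, while 1.1-fold gave 9 higher and 3 lower. Leaving out Cox4nb, and counting Ndufa4 and Ndufa4l2 with complex IV, were chosen after the data had been seen. The other 94 values for medians and counts stayed within 1.5 times (counts) or within the margin of the counting interval of the summed counts (log2 ratios). All 237 member ratios stayed within their counting intervals under both scalings and the pseudocount of 5. For the scalings this was fixed in advance, since each adds the same small constant to every log2 ratio (0.012 for total counts, 5.2e-05 for TMM). Depth leaves an interval of 0.532 to 1.19 around Ndufa4l2 and of 0.974 to 1.03 around Sdha.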
